A study of Mus musculus with 6 samples.

Results

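Carbonic anhydrases are a family of zinc enzymes, and 10 of their genes (Car1, Car2, Car3, Car4, Car7, Car8, Car9, Car12, Car13 and Car14) were examined in mouse colon. They were chosen as genes by name, with no use of their measured values, and every array probe whose RefSeq accession belongs to one of them was taken. The 10 genes had 14 probes, of 23462 named genes and 56605 probes in all. All 10 genes passed the filter on dim probes, as did 13 of the 14 probes, and Car1, Car8, Car9 and Car14 had 2 probes each. RNA from the colon of 6 male mice was hybridised to 6 single-colour Agilent arrays, 3 from control animals and 3 from animals labelled as Islr knockouts. Islr encodes a secreted or membrane-attached leucine-rich repeat protein of stromal cells. All 6 samples share a label of 3.5% dextran sulphate sodium, a polymer toxic to the lining of the colon, drunk for 5 days and followed by 1 day of recovery, while a separate treatment label says that none was given. The knockout allele, whether the gene was removed in every cell or in some, and the strain and age are not given in the sources used here.

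Carbonic anhydrases interconvert carbon dioxide and water with bicarbonate and a proton. In the colon the cytosolic and the membrane-bound enzymes of surface cells supply the protons and bicarbonate that apical sodium-proton and chloride-bicarbonate exchangers trade for sodium and chloride, and the enzymes are therefore counted among the markers of absorptive colonocytes. Other members serve other cells: Car3 is abundant in fat and skeletal muscle, Car9 is a known target of the hypoxia response, and Car8 has lost the zinc-binding site and with it the enzyme activity.

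Values below are log2 signals relative to the 75th percentile of the same array, so that a difference of 1 is a doubling of signal, and differences are knockout minus control. A probe's level is not comparable with another probe's, so only differences are set side by side. Islr itself stood at 1.57, 1.24 and 1.21 in the controls and at -1.40, -0.93 and -1.31 in the knockouts. It fell by 2.44 (SE 0.21, limma adjusted p = 0.0171), with no overlap between the groups; that p was 0.0580 without knockout replicate 3, and the fit without control replicate 2 or control replicate 3 had too few usable spots to test it. The 75th percentile signal ran from 4910.5 to 7110 over the arrays, and 69.4% to 75.4% of probes were well above background. Spots with an outlier mark made up 3.26% to 16.0% of an array, the most on control replicate 1 (13.6%) and knockout replicate 1. All 11 pan-epithelial genes and all 11 genes of enteric neurons and glia were above background on every array. The controls lay in one row of the slide and the knockouts in the other, so genotype and slide row cannot be told apart. Nothing in the labels says that the 3 arrays of a group came from separate litters or days, and the p-values measure the spread between these samples.

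The carbonic anhydrase signals stood higher in the knockouts for most probes, but most probes did not pass the test. The controls differed more among themselves than the knockouts did for 9 of the 10 genes. The knockout mean was higher for 12 of the 13 tested probes and for all 10 genes by the probe that stands for each (the tested probe with the highest mean). These directions rest on scaling to the whole array: centred instead on 11 pan-epithelial genes, 3 of the 10 genes were higher and 7 lower. The median difference over the 10 genes was 1.27, against 0.01 over all 16451 genes tested and 50% of all tested probes with a difference above 0. It was 0.69 without control replicate 2, over the 9 genes then tested. The medians of the pan-epithelial and surface colonocyte genes described below, 1.33 and 1.39, were then 0.64 and 0.77. Those were also over fewer genes, 8 and 15. After Benjamini-Hochberg adjustment over 35351 probes, 2 of the 13 passed at 0.05, namely the Car7 probe and the dimmer Car14 probe, both higher. That Car14 probe met the filter on dim probes through the knockouts alone, and without the filter only the Car7 probe passed. Of all tested probes 3.97% passed in either direction, 1.55% upwards and 2.42% downwards. With 1 probe a gene, 1 of the 10 genes (Car7) passed, upwards, against 3.82% of all genes tested in either direction, 1.35% upwards and 2.47% downwards. Groups did not overlap for 7 of the 13 tested probes, each higher in the knockouts, whereas 34.9% of all tested probes had no overlap and 17.1% had none with the knockouts higher. Leaving out single arrays moved these calls. None of the 13 probes passed when control replicate 2 or 3, or knockout replicate 1 or 3, was left out, and 3 passed when control replicate 1 was.

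**Figure D1:**
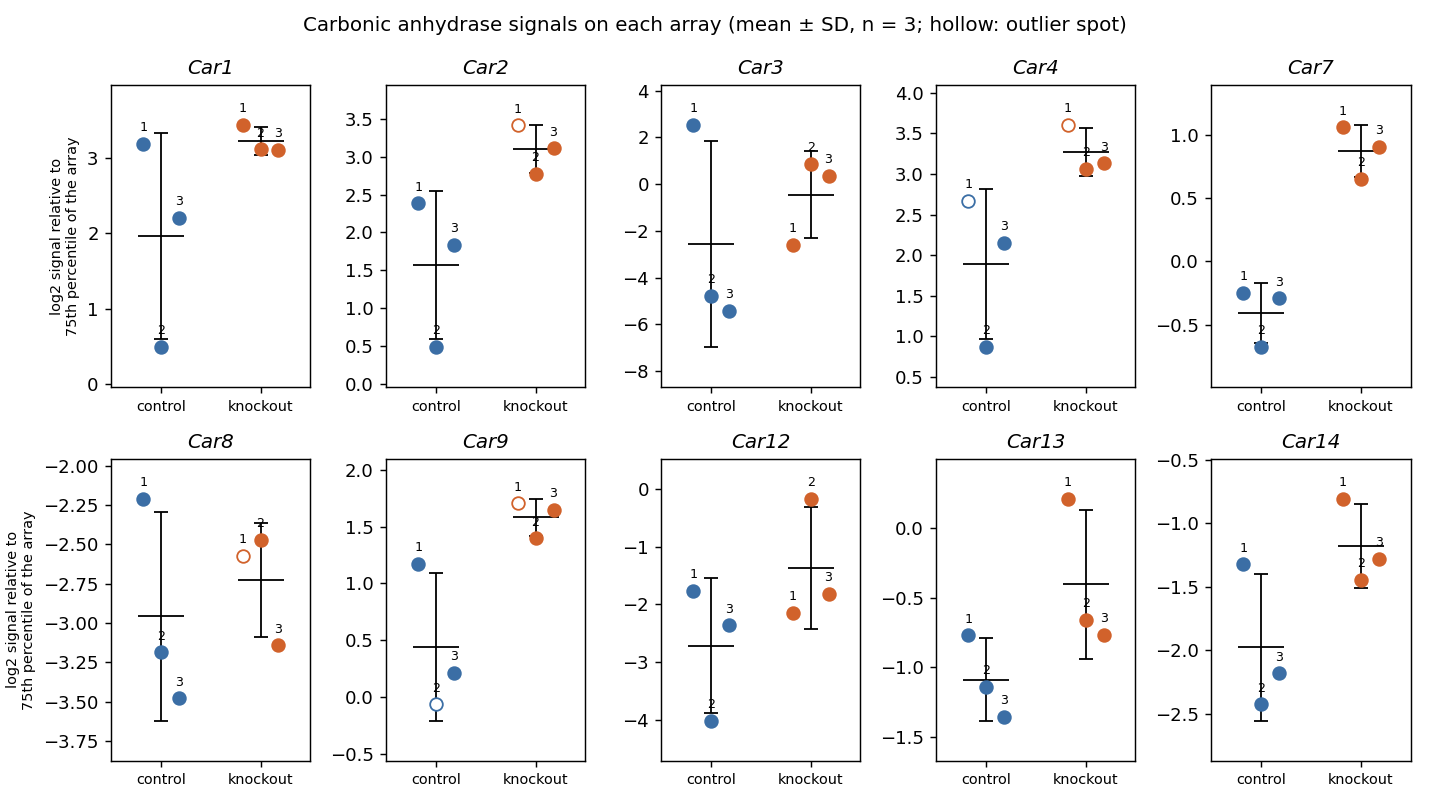
Log2 signal relative to the 75th percentile of the array (vertical axis) on each of the 6 arrays for the probe that stands for each of the 10 genes, 1 panel a gene, with points numbered by replicate, hollow points for spots with an outlier mark, and the mean ± SD (n = 3) of each group. Control replicate 2 was the lowest of the 6 arrays for 7 genes, and the knockouts lay close together for Car1, Car2, Car4 and Car9, while Car3 spanned 7.96.

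The order of the arrays was shared by most members. Control replicate 1 was the highest control for 10 of 10 genes (31.8% of all tested probes have that order), and control replicate 2 was the lowest of all 6 arrays for 7 of 10 (18.9% of tested probes). The SD was larger in the controls than in the knockouts for 9 of 10 genes, against 48.7% of tested probes. The median SD over the 10 genes was 0.80 in controls and 0.32 in knockouts, whereas over all tested probes it was 0.24 and 0.25. These shares were looked at after the values had been seen and are descriptions.

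**Figure D2:**
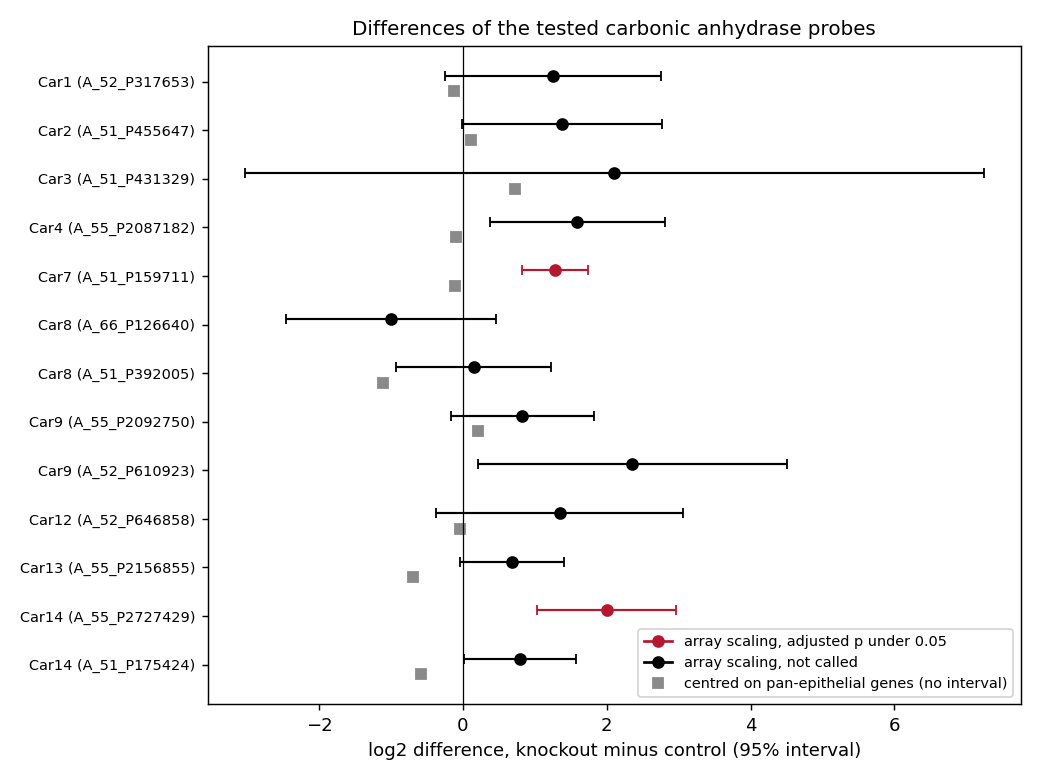
Log2 difference, knockout minus control (horizontal axis), for the 13 tested probes. Circles with bars are the array-scaled difference and its 95% interval (red where the adjusted p is under 0.05, black otherwise), and grey squares, without an interval, the difference after centring on 11 pan-epithelial genes; 12 of 13 circles lie above 0, while 7 of 10 squares lie below it.

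Car1, Car2 and Car4 are the carbonic anhydrases typical of surface colonocytes. Car1 and Car2 encode cytosolic enzymes, Car2 being the faster, and Car4 an enzyme anchored by a lipid to the outside of the apical membrane. Car1 stood at 3.18, 0.49 and 2.21 in the controls and at 3.44, 3.11 and 3.11 in the knockouts. Control replicate 2 was far below every other array and control replicate 1 lay within the range of the knockouts, so the groups overlapped. The difference was 1.26 (SE 0.63, 95% interval -0.24 to 2.76, limma adjusted p = 0.252), and it was 0.52 without control replicate 2. The other Car1 probe had outlier marks on 5 arrays and was not tested, but its kept values ran in a like way, at 2.80, 0.23 and 1.44 among controls and 3.08, 2.77 and 2.96 among knockouts.

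Car2 stood at 2.38, 0.49 and 1.84 in the controls and at 3.41, 2.78 and 3.11 in the knockouts. Every knockout was above every control. Knockout replicate 1 had an outlier mark and was left out of the fit, which gave a difference of 1.37 (SE 0.56, 95% interval -0.02 to 2.76, limma adjusted p = 0.191, n = 3 and 2) and 0.83 without control replicate 2. The exact permutation test over all 6 arrays gave p = 0.1, the smallest that 3 against 3 can reach. Car4 stood at 2.67, 0.87 and 2.15 in the controls and at 3.61, 3.07 and 3.13 in the knockouts, again without overlap. Its fit left out replicate 1 of both groups for outlier marks, and the difference of 1.59 (SE 0.46, 95% interval 0.38 to 2.81, limma adjusted p = 0.117, n = 2 and 2) did not pass. With the arrays' values centred on their own mean, Car2 and Car4 lay 0.0922 apart on average per array, the smallest distance between any pair of members, and Car1 lay 0.198 from Car4.

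The values of Car1, Car2 and Car4 over the arrays ran much like the mean of a list of epithelial genes. The mean of the 11 pan-epithelial genes (keratins, cadherin and other epithelial genes, some of them intestinal) was 2.03, -0.10 and 1.60 in the controls and 2.80, 2.44 and 2.43 in the knockouts. Its groups did not overlap, and control replicate 2 was again the lowest array. Of the 9 pan-epithelial genes tested, 9 were higher in knockouts and 0 passed, with a median difference of 1.33; Krt8 differed by 0.68 and Krt19 by 0.85. Of 20 surface colonocyte genes, 18 were tested and 18 were higher when scaled to the array, with a median of 1.39. Centred on the pan-epithelial genes, 9 of the 18 were higher and the median was 0.0013. Guca2a (guanylin) and Lypd8 differed by 0.79 and 0.47 when scaled to the array, and by -0.59 and -1.22 when so centred. Ggh, a gamma-glutamyl hydrolase, was the 1 that passed. It was not well above background in any control, so it was tested through the knockouts alone, and was at least 3.66-fold higher there. Its limma adjusted p of 0.0169 belongs to a fitted difference of 3.52 that uses control values below measurement, and not to that bound. The call was lost without control replicate 3 (0.0544) or knockout replicate 3 (0.0534). The summed level of the surface list was 4.70 to 6.26 in controls and 6.54 to 6.77 in knockouts, with 18 to 19 and 19 to 20 of its genes above background. In bulk colon, fewer cells of a type and less RNA per cell cannot be told apart.

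Set against the pan-epithelial mean of the same array, the 3 colonic enzymes became nearly flat. Car1 then ran from 0.60 to 1.15 over the 6 arrays, a span of 0.56 against 2.94 when scaled to the array. The span of Car2 shrank from 2.93 to 0.44 and that of Car4 from 2.74 to 0.41. Their differences became -0.13 for Car1, 0.11 for Car2 and -0.10 for Car4. This centring moved the median of all tested probes to -1.40, so it shows the genes relative to the pan-epithelial genes and not a change in level. The part of epithelial content in the differences was not tested.

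**Figure D3:**
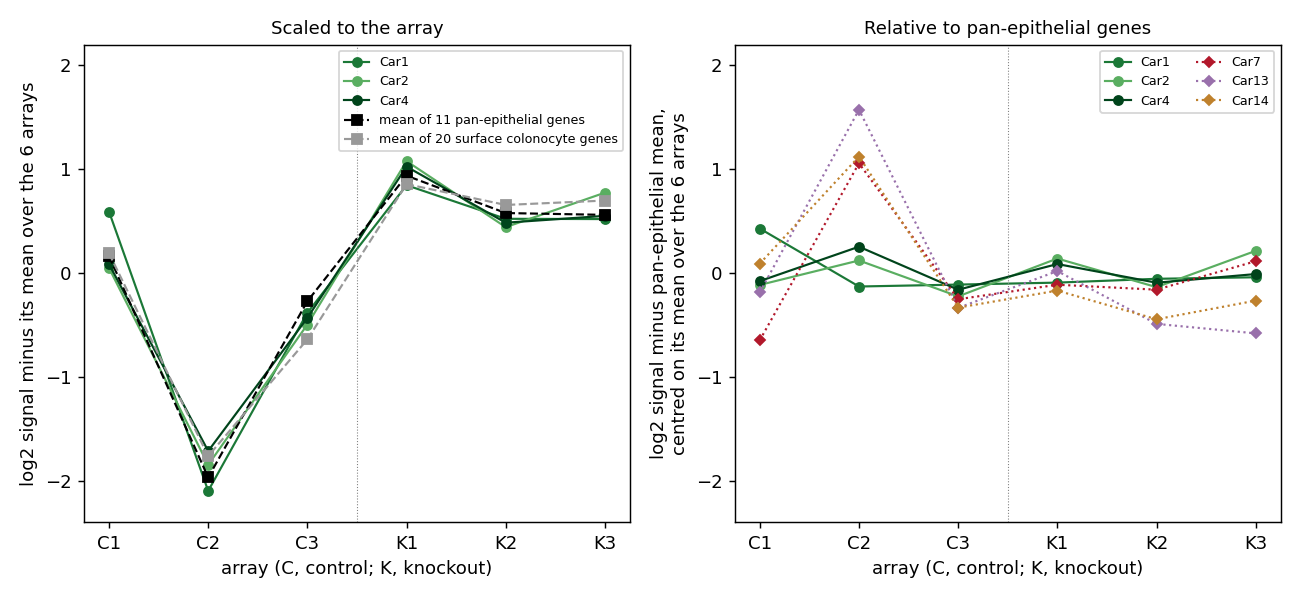
Each gene or list mean on each array, centred on its own mean over the 6 arrays (log2, vertical axis), for controls C1 to C3 and knockouts K1 to K3; lines join the points of 1 gene. Left, scaled to the array, Car1, Car2 and Car4 follow the means of 11 pan-epithelial and 20 surface colonocyte genes. Right, relative to the pan-epithelial mean, these 3 span 0.41 to 0.56, while Car7, Car13 and Car14 span 1.57 to 2.15 and are high in control replicate 2.

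Car7 and Car13 are cytosolic enzymes, Car7 being best known from neurons and Car13 found in several tissues. Car7 stood at -0.25, -0.68 and -0.29 in the controls and at 1.06, 0.65 and 0.91 in the knockouts. The groups were separated by more than the spread within either, since the highest control lay below the lowest knockout and both groups were tight. It rose from -0.41 ± 0.24 to 0.87 ± 0.21 (SD, n = 3), a difference of 1.28 or 2.43-fold (SE 0.19, 95% interval 0.82 to 1.74, limma adjusted p = 0.0319). The difference stayed between 1.14 and 1.39 with any 1 array left out. The adjusted p was then 0.0379 without control replicate 1 and 0.0404 without knockout replicate 2, but missed 0.05 when control replicate 2 (0.0928) or 3 (0.0847), or knockout replicate 1 (0.0692) or 3 (0.0879), was dropped. Relative to the pan-epithelial mean Car7 differed by -0.11, and its span over the 6 arrays stayed at 1.70 against 1.74, unlike those of Car1, Car2 and Car4. The 11 genes of enteric neurons and glia, cells that could hold Car7, had a summed level of 4.06 to 4.17 in controls and 3.62 to 3.92 in knockouts, all 11 above background on each array, with 8 of 9 tested genes lower and 0 past the test (Uchl1 -0.22, Prph -0.42). The part of these cells in the Car7 values was not tested.

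Car13 stood at -0.77, -1.14 and -1.35 in the controls and at 0.21, -0.66 and -0.77 in the knockouts. The groups only just failed to overlap, the highest control and the lowest knockout being equal at this rounding. The difference was 0.68 (SE 0.30, limma adjusted p = 0.207) and 0.38 without knockout replicate 1, and it became -0.70 when centred on the pan-epithelial genes. In the mouse genome Car13, Car1, Car3 and Car2 lie in that order on chromosome 3, with 0 other protein-coding genes between them, per RefSeq. By the mean distance per array Car3 stood apart from its 3 neighbours, at 2.21 from Car1, 2.34 from Car2 and 2.75 from Car13, while Car1 and Car2 lay 0.246 apart.

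Car9, Car12 and Car14 span the plasma membrane with the catalytic domain outside. Car9 stood at 1.17, -0.06 and 0.21 in the controls and at 1.70, 1.40 and 1.65 in the knockouts by its brighter probe, with no overlap. Its fit left out control replicate 2 and knockout replicate 1 for outlier marks and gave 0.83 (SE 0.38, limma adjusted p = 0.247, n = 2 and 2). The other Car9 probe read 0.59, -3.36 and -1.34 on the control arrays and 1.17, 0.69 and 1.09 on the knockout arrays. Both probes put control replicate 2 lowest and separated the groups, and they differed in size, the second giving 2.35 (SE 0.90, limma adjusted p = 0.156), which was 3.33 and past the test without control replicate 1. Car12 stood at -1.77, -4.02 and -2.36 for the controls and at -2.14, -0.16 and -1.81 for the knockouts; the groups overlapped, knockout replicate 2 stood alone at the top, and the difference was 1.34 (SE 0.72, limma adjusted p = 0.279), or 0.69 without control replicate 2 and 0.74 without knockout replicate 2.

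Car14 had 1 probe above background on all 6 arrays and 1 near background. The brighter read -1.32, -2.42 and -2.18 in the controls, and -0.81, -1.44 and -1.28 on the knockout arrays. Control replicate 1 lay above the lowest knockout, and the difference of 0.80 (SE 0.33, 95% interval 0.020 to 1.58, limma adjusted p = 0.178) did not pass. The dimmer probe read -5.51, -7.06 and -6.21 on control arrays and -4.18, -4.66 and -3.96 on knockout arrays. It was well above background in 1 of the 3 controls and in all 3 knockouts, so it was tested through the knockouts alone. Its fitted difference of 2.0 (SE 0.41, limma adjusted p = 0.0495) passed. The size is not exact, since the other controls were below measurement. It was 1.46 with those controls set to the lowest signal well above background on their arrays, and 1.25 with normexp background correction. That call ended without the filter on dim probes, under quantile normalization, after centring on pan-epithelial genes, and when any array but control replicate 1 was left out.

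The hypoxia-inducible genes, among which Car9 is counted, were split in direction. Of the 16 on the list besides Car9, 15 were tested, 9 were higher, 6 were lower and 0 passed. The median difference was 0.21. It was -0.18 without control replicate 2, -0.19 without control replicate 3 and -0.16 without knockout replicate 3. Fits with an array left out can test fewer genes. Without control replicate 2, 10 were tested and 5 were higher, so that median is not over the same genes. Aldoa and Ldha, glycolytic enzymes, differed by 0.31 and 0.21, and by -1.08 and -1.48 when centred on the pan-epithelial genes. The list's summed level was 5.65 to 6.01 in controls and 5.85 to 6.23 in knockouts. The sequences just upstream of the annotated starts are shown for Car9 and Car14, whose windows hold a match to ACGTG, and for Car7, the gene whose main probe passed. Each is the 100 bases before a start in RefSeq's annotation of GRCm38.p6, given 5′ to 3′ on the gene's strand, and 5 of the 10 members had such an entry. Capitals mark a match, on either strand, to ACGTG (a form of the hypoxia response core), TTTAT (the core of caudal-type homeobox sites) or CAAAG (a half-site of HNF4 nuclear receptors). Other forms of the hypoxia response core were not searched for in any window, those of Car7 included.
Car9, chr4:43506926-43507025, plus strand: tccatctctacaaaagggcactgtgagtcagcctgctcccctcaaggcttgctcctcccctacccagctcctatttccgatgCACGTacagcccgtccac
Car14, chr3:95904686-95904785, minus strand: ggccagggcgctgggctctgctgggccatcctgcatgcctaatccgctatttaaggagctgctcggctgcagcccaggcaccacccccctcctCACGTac
Car7 start 1, chr8:104534600-104534699, plus strand: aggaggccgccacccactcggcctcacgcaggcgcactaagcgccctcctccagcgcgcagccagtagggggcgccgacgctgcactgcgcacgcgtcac
Car7 start 2, chr8:104540707-104540806, plus strand: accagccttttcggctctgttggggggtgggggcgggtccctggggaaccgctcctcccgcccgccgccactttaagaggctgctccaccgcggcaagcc
Car7 start 3, chr8:104541209-104541308, plus strand: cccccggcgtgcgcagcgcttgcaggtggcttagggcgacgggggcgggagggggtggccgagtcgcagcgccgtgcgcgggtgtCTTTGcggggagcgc
The match to ACGTG begins 18 bases before the start of Car9 and 7 bases before that of Car14, and 8.09% of 32851 upstream windows of the same length hold such a match. The third Car7 window holds an HNF4 half-site on the opposite strand, a motif found in 21.6% of windows. The caudal-type core, found in 17.5% of windows, was in none of the 7 windows of the members. A match is a description of the letters, and the arrays do not tell which Car7 start was used.

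Car3 encodes a cytosolic enzyme of low activity and varied more than any other member. It stood at 2.53, -4.78 and -5.43 in the controls and at -2.59, 0.87 and 0.35 in the knockouts. Control replicate 1 was the highest array and the other controls the lowest, so the controls spanned the whole range of the knockouts. The difference was 2.1 (SE 2.15, 95% interval -3.03 to 7.24, limma adjusted p = 0.567). It was 4.65 (limma adjusted p = 0.0563) without control replicate 1. Without replicate 1 of both groups, the arrays with the most outlier marks, it was 5.72 (limma adjusted p = 0.0206). That alternative was chosen after the data had been seen, and the Car3 probe itself had no outlier mark. The arrays left out held the highest control and the lowest knockout for Car3.

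The genes nearest to Car3 over the 6 arrays were adipocyte genes. Among 23953 named probes above background on every array, each centred on its own mean, Cfd (adipsin, secreted by fat cells) lay 0.702 from Car3 on average per array, Adipoq (adiponectin) 0.889 and Cidec (a lipid droplet protein) 1.03. Cfd stood at 3.22, -3.47 and -4.48 in the controls and at -4.14, 1.79 and 1.38 in the knockouts, high where Car3 was high. Of the 10 adipocyte genes, 7 were tested, 5 were higher, 2 were lower and 0 passed; Retn (resistin) and Pck1 differed by -0.15 and 2.52. Their mean was 0.12 in control replicate 1 and -3.26 and -3.0 in the other controls, and -2.96, -1.11 and -1.49 in knockout replicates 1, 2 and 3. Between 8 and 10 of them were above background in controls and 8 or 9 in knockouts, and the summed level was 2.89 to 4.99 and 3.04 to 3.84. The part of fat RNA in the Car3 values was not tested. The 16 skeletal muscle genes, the other known source of Car3, had means of -3.78 to -3.61 in controls and -3.36 to -2.99 in knockouts. The groups did not overlap, and no single array stood apart. Of the 14 tested genes 11 were higher and 3 lower. The part of muscle RNA in the Car3 values was not tested. Tnnt1 and Acta1 differed by 1.11 and 0.13 when scaled to the array and by -0.28 and -1.68 when centred on the pan-epithelial genes, and 2 of 14 tested genes passed. These were the fast myosins. Myh1 was higher by 2.07 (limma adjusted p = 0.016), a call lost without control replicate 3 (0.0531) or knockout replicate 3 (0.0530). Myh2 was not well above background in any control, so it was tested through the knockouts alone, and was at least 4.61-fold higher there. Its limma adjusted p of 0.0103 belongs to a fitted difference of 3.74 that uses control values below measurement, and not to that bound.

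**Figure D4:**
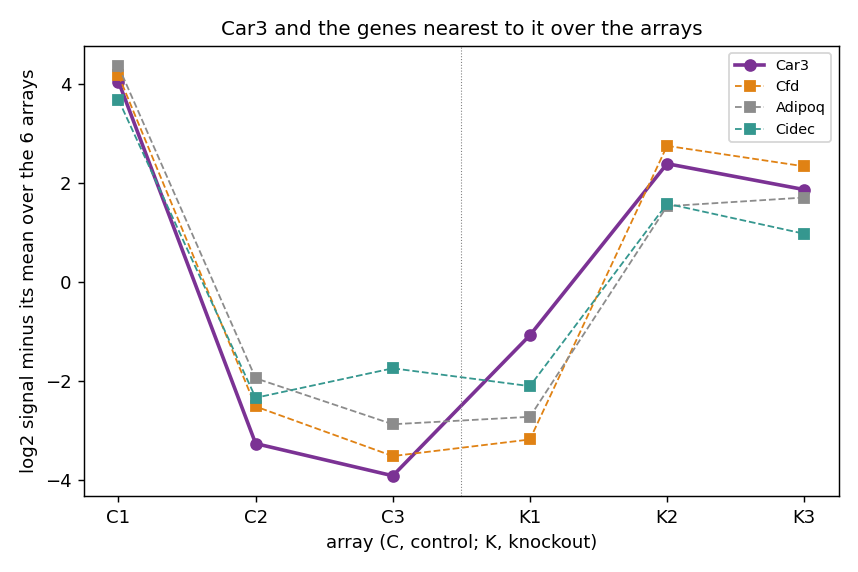
Log2 signal of Car3 and of the adipocyte genes Cfd, Adipoq and Cidec, each centred on its own mean over the 6 arrays (vertical axis), for controls C1 to C3 and knockouts K1 to K3; lines join the points of 1 gene. All 4 are highest in control replicate 1, next in knockout replicates 2 and 3, and low in control replicates 2 and 3 and, less evenly, knockout replicate 1.

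Car8, the member without enzyme activity, binds the inositol trisphosphate receptor in Purkinje cells. Its brighter probe read -2.21, -3.19 and -3.48 in controls, against -2.57, -2.47 and -3.14 for the knockouts. The arrays of both groups were intermixed, and the difference, with knockout replicate 1 left out for an outlier mark, was 0.15 (SE 0.43, limma adjusted p = 0.853). It was -0.11 without control replicate 3, and the dimmer probe, above background in 3 controls and 1 knockout, gave -1.0 (SE 0.61, limma adjusted p = 0.336), so Car8 had no settled direction. None of the rest of the family passed. Car6, a secreted enzyme of saliva, differed by 1.03 (limma adjusted p = 0.327), and by -0.36 when centred on the pan-epithelial genes. The inactive Car11 differed by -0.36 and the membrane-anchored Car15 by -0.16 (limma adjusted p = 0.345 and 0.623). The mitochondrial Car5a was above background on 1 array, and the inactive Car10 on none. No probe was named for Car5b.

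The transporters that trade the enzymes' products were also mostly higher when scaled to the array. Of 17 bicarbonate and proton partners 12 were tested, 10 were higher and 2 lower, with a median of 1.61, and 1 passed in each direction. The median varied with the processing and with which genes were tested. In the main fit it was the midpoint between 2 genes, at 0.92 and 2.31. It was 0.85 with outlier spots kept, 0.87 from the deposited value table and 1.07 without the filter on dim probes. Each of these fits tested 14 genes, 12 of them higher. It was 0.29 centred on pan-epithelial genes and 0.75 without replicate 1 of both groups. Without knockout replicate 1, 2 or 3 it was 0.73, 0.67 and 0.72. Slc4a4, a sodium-bicarbonate cotransporter of the basolateral membrane, stood at -0.95, -1.89 and -1.46 in the control group and at 2.31, 0.70 and 0.73 in the knockout group. All knockouts were above all controls, and it rose by 2.68 (SE 0.48, limma adjusted p = 0.0422). That call ended without the filter on dim probes (0.0662) and when control replicate 2 (0.112) or 3 (0.108), or knockout replicate 1 (0.0537) or 3 (0.0830), was dropped. Slc4a1, the chloride-bicarbonate exchanger of red cells and kidney, fell by 1.65 (SE 0.22, limma adjusted p = 0.0269), above background in 3 controls and 2 knockouts; the same 4 omissions took its adjusted p to between 0.0512 and 0.0774, and normexp its size to -0.91. Slc4a2, a widely expressed chloride-bicarbonate exchanger, differed by 0.61, did not pass, and stood at -0.78 when centred on the pan-epithelial genes.

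Red cells and osteoclasts or macrophages also hold carbonic anhydrases, Car1 and Car2 in the first and Car2 in the second. Of 10 red-cell genes 8 had a probe and 4 were tested, with 3 lower and 0 past the test. Their median of -0.81 turned to 0.078, with 4 of 7 tested genes higher, without the filter on dim probes. Their summed level was 3.36 to 3.94 in controls and 3.07 to 3.29 in knockouts, with 4 or 5 genes above background. Ermap differed by 0.08, and by -0.012 under quantile normalization, and the alpha-globin Hba-a1 by -0.88 (limma adjusted p = 0.0866). Of 8 osteoclast and macrophage genes 6 were tested and 5 were lower (Csf1r -0.37), Acp5 being the exception at 0.31. Ctsk, cathepsin K, fell by 1.74 (limma adjusted p = 0.0486), a call lost with any single array left out (0.0514 to 0.115). The list's summed level was 3.94 to 4.37 in controls and 3.68 to 3.97 in knockouts. Control replicate 1 had the highest summed level of all 6 arrays for both lists. It was also the highest control for Car1 and Car2, as it was for all 10 members. The osteoclast and macrophage groups overlapped. The part of these cells in the Car1 and Car2 values was not tested. Of 8 genes of distal colon position 7 were tested, 6 were higher and 0 passed. Hoxb13 differed by 2.41 and Hoxd13 by 0.21, and by 1.02 and -1.06 when centred on the pan-epithelial genes. By that centring 1 of the 7 was higher. The distal list's summed level was 1.97 to 2.36 in controls and 2.73 to 4.03 in knockouts, without overlap. Its means, -1.79 to -1.46 and -1.52 to -0.33, overlapped. The part of the sampled position along the colon was not tested.

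By the same distance, the 3 named genes nearest to each other member were closer than those of Car3. For Car2 they were Prkaa2 (a subunit of AMP-activated kinase), Mmp15 and Liph, the first at 0.0488. For Car4 they were Muc13 (a membrane mucin of the intestine), Prdx6 and Gpa33 (an intestinal epithelial antigen), from 0.0567 to 0.0619, and for Car1 they were Ly6g6e, AA986860 and Rep15, from 0.104 to 0.109. Car7 lay nearest to Gmppb, Cmas and Dennd2d, the first at 0.0507, and Car13 to Hsdl2, Fggy and Map2k6. Car9 lay nearest to Ephx2, Arhgap27 and Tpmt, and Car14 to Pard3 (a polarity protein), Tax1bp3 and Hint3, the first at 0.037. Car12 was matched less closely, with Hoxaas3 at 0.256 before Dgat2 and Krt12, and Car8 lay nearest to 1700123K08Rik, Gpr20 and Scaper. With 6 arrays and 23953 candidate probes, these distances describe the shape over these arrays.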

How the data were processed

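RNA from 6 colon samples, 3 control and 3 Islr knockout, was measured on single-colour Agilent arrays of design 074809 (build mm9, per the file headers). Each deposited file is 1 array's scanner output, with the processed red-channel intensity of 62976 spots. The file headers name Feature Extraction 11.5.1.1, whereas the submitters' processing notes name 10.7, and the labels name the green dye Cy3 although the deposited intensity is in the red columns. The series' value table held the same intensity, unscaled. Samples were grouped by their labels. Replicates were numbered in accession order.

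From these files, log2 intensity minus each array's 75th percentile over 59305 non-control spots was computed. Spots marked non-uniform or population outliers were set missing, and spots of a probe were averaged. Of 56605 probes 59.7% were named through RefSeq accessions. A probe was tested if well above background on all 3 arrays of a group with at least 2 usable values in each group. Groups were compared with limma 3.58.1 in R 4.3.3, Benjamini-Hochberg adjusted over all 35351 tested probes at 0.05, and the fit was checked on simulated data. Values by array keep outlier spots. From each list the text names the genes past the test and the 2 of highest mean signal, and for each member its 3 nearest genes; 1 gene so chosen is not reported here. The family, the gene lists and the alternatives were chosen with earlier results of these data known. Alternatives were other filters and scalings, array weights and leaving out arrays. The number of arrays limits the precision.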

Additional observations from a re-analysis of the deposited data

How the results depend on the processing

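Of all 35351 tested probes 1403 passed. The count was 484 without the filter on dim probes, 2558 with normexp (51.1% higher, against 39.1%), 2185 with quantile normalization, 2249 with median centring, 2274 from the value table, 7320 with array weights (49.7% higher) and 3682 centred on pan-epithelial genes (1.36% higher), and 40 to 2114 with 1 array left out. The centred fit shared 1 spread over all probes, so its p-values are not used. The 2 calls among member probes became 1 without the filter, with the filter on all 6 arrays, with quantile normalization, with pan-epithelial centring (the dim Car8 probe) and without replicate 1 of both groups, an alternative chosen after seeing the data, 4 with array weights, and 0 to 3 with 1 array left out. The 6 calls among 104 genes of the other lists became 3 with the all-array filter, 12 with pan-epithelial centring, 33 with array weights, 14 without replicate 1 of both groups, and 1 to 13 with 1 array left out.

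Pan-epithelial centring turned Car1 to -0.13, Car4 to -0.10, Car7 to -0.11, Car8 to -1.11, Car12 to -0.039, Car13 to -0.70 and Car14 to -0.59. By construction it also turned Car6 (-0.36), Slc4a2 (-0.78), Hoxd13 (-1.06), Aldoa (-1.08), Ldha (-1.48), Acp5 (-0.95), Krt8 (-0.58), Krt19 (-0.42), Ermap (-1.61), Tnnt1 (-0.28), Acta1 (-1.68), Guca2a (-0.59) and Lypd8 (-1.22). With 1 array left out Car7 ran from 1.14 to 1.39, Car8 from -0.11 to 0.52, Car3 from 0.67 to 4.65, Car1 from 0.52 to 1.87, Car12 from 0.69 to 1.82 and Islr from -2.58 to -2.34. Car7 was 1.26 (adjusted p = 0.0535) and Car3 5.72 without replicate 1 of both groups, and Car14 was 0.96, past the test, with array weights. The cause of these changes was not tested. Ermap was -0.012 under quantile normalization. Retn was 0.83 with array weights, 0.70 and 0.35 without control or knockout replicate 1 (range with 1 array left out -0.65 to 0.70), and 1.19 without both. Acta1 was -0.20 without knockout replicate 3 (range -0.20 to 0.39). The other probe gave -1.0 for Car8 and 2.0, past the test, for Car14. No paired analysis was possible because the replicate numbers come from accession order and pair nothing.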
